A study of Mus musculus with 28 samples.

Results

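Vav3, Sorcs2, Fstl1, Rgcc, Cabcoco1, Ptpro and Agr3 are 7 genes with large positive differences between Lgr5-high and Lgr5-low cells of the mouse small intestine that are not among the usual intestinal stem cell markers. They were chosen by name from the deposited table of 54354 genes, all 7 were found there, and all 7 passed the filter on low counts that left 12495 genes for testing. The rule that chose them does not name a diet. In these data the 7 genes and the markers Lgr5, Sfrp5 and Olfm4 fill the first 10 places by fold change among the 83 genes higher in Lgr5-high cells on control diet, so the control diet contrast is treated as the one that chose them and is given as a description. The comparison of the populations on cystine diet takes its means from other libraries and was tested. Its spread was estimated over all 28 libraries, so the control diet libraries also enter its SE and p-values. Since the rule names no diet, a part of the cystine diet values in the choice is not excluded. The p-values of that comparison hold only if they had none.

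The 28 libraries come from mice of the genotype Lgr5-GFP, in which green fluorescence reports the activity of the receptor gene Lgr5. They form 4 groups of 7: Lgr5-high cells on cystine diet, Lgr5-high cells on control diet, Lgr5-low cells on cystine diet and Lgr5-low cells on control diet. Cystine is made of a pair of cysteines joined by a disulfide bond. The labels give neither the amount fed nor the animals' age or sex. The series' design text places the sorted populations in the small intestine while the labels' extraction protocol names organoids, and this is not settled here. No label says that each library is from an animal of its own, so the p-values reflect variation between libraries that may be technical.

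Lgr5-expressing crypt base columnar cells are the dividing stem cells of the intestinal crypt, kept in place by Wnt signals from Paneth cells and the surrounding stroma. Cells that leave the crypt base lose Lgr5 and become absorptive cells or secretory cells such as goblet cells, which fold and export large amounts of mucin. The 7 genes belong to unrelated families: a secretory pathway disulfide isomerase, a guanine nucleotide exchange factor, a receptor tyrosine phosphatase, a sorting receptor, a secreted glycoprotein, a cell cycle regulator and a ciliary calcium-binding protein.

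Library totals ran from 2.75 to 21.5 M counts (M, 1000000) with a median of 5.32 M in Lgr5-high cystine libraries, 15.4 M in Lgr5-high control libraries, 14.8 M in Lgr5-low cystine libraries and 7.30 M in Lgr5-low control libraries. Under 5 M counts lay 3 Lgr5-high cystine libraries, 1 Lgr5-high control library, 1 Lgr5-low cystine library and 2 Lgr5-low control libraries. Lgr5 itself lay between 16.2 and 35.3 CPM (counts per 1000000 counts, scaled by library composition factors) in Lgr5-high cystine libraries, against 2.70 to 10.9 CPM in Lgr5-low cystine libraries. It lay between 21.5 and 45.1 CPM in Lgr5-high control libraries, against 0.214 to 10 CPM in Lgr5-low control libraries, so the populations did not overlap on either diet. Summed transcripts of a list of 14 macrophage markers ranged from 22.2 to 658 CPM in Lgr5-high cystine libraries, from 28.4 to 61.3 CPM in Lgr5-high control libraries, from 35.3 to 143 CPM in Lgr5-low cystine libraries and from 9.63 to 80.9 CPM in Lgr5-low control libraries. On cystine diet 10 of the 13 tested macrophage markers were higher in Lgr5-high than in Lgr5-low cells; values of the members with a term for these transcripts are given below where they differ. Mitochondrial transcripts took 15.9% to 25.5% of the counts in Lgr5-high cystine libraries against 14.2% to 19.2% in Lgr5-low cystine libraries, and 15.3% to 23.0% in Lgr5-high control libraries against 14.8% to 19.2% in Lgr5-low control libraries. Their part in the differences between the populations was not tested.

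Agr3 was higher in every Lgr5-high library than in every Lgr5-low library on both diets. AGR3 is a member of the protein disulfide isomerase family of the endoplasmic reticulum, and in mouse airway it is known for a part in the beating of cilia. The gene (ENSMUSG00000036231, protein-coding) lies at chr12:35925620-35949736 on the plus strand of mm10. On cystine diet Agr3 ranged from 33.5 to 83.8 CPM with a median of 66.9 CPM in Lgr5-high libraries, against 7.99 to 21 CPM with a median of 10 CPM in Lgr5-low libraries. On control diet it ranged from 41.5 to 81.5 CPM with a median of 62.6 CPM in Lgr5-high libraries, against 8.27 to 30 CPM with a median of 12.1 CPM in Lgr5-low libraries. The lowest Lgr5-high library lay above the highest Lgr5-low library on both diets. The log2 fold change on cystine diet was 2.51 ± 0.278 (SE, n = 7 each; 95% interval 1.94 to 3.07), with an adjusted p of 6.27e-07 in edgeR's quasi-likelihood test over all tested genes. On control diet, the contrast that chose the gene, it was 1.99.

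Agr3 was the 1 member of 7 called on cystine diet, where 2.64% of the tested genes were called and 1.1% were called as higher in Lgr5-high cells. It was also the 1 member of 7 without overlap between the populations on that diet, which held for 0.56% of the tested genes with Lgr5-high above. Among the 119 named genes higher in Lgr5-high cells on cystine diet at a mean of at least 2 CPM, Agr3 took place 15 by fold change. With a term for macrophage transcripts in the model the log2 fold change was 2.57 with an adjusted p of 1.18e-05, and motile ciliated cell markers summed to at most 3.14 CPM in Lgr5-high cystine libraries and at most 8.15 CPM in any library, with the ciliated cell regulator Foxj1 at 0 in all 4 groups.

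Agr2, the paralog needed for mucin folding in goblet cells, lay on the other side of the same contrast. It sits 43.2 kb downstream of Agr3 on the same strand (chr12:35992907-36004087), with no annotated gene between them. Agr2 ranged from 551 to 1480 CPM with a median of 642 CPM in Lgr5-high cystine libraries, against 1170 to 2350 CPM with a median of 1880 CPM in Lgr5-low cystine libraries. Its levels overlapped in 1 Lgr5-high library, and 6 of the 7 Lgr5-high libraries lay below every Lgr5-low library. The log2 fold change was -1.25 ± 0.249 (SE, n = 7 each) with an adjusted p of 0.0033 in edgeR's test, and -1.0 with an adjusted p of 0.0707 without the libraries under 5 M counts. Per kilobase of annotated exon, Agr3 averaged 64.6 ± 20.1 CPM and Agr2 averaged 599 ± 249 CPM in Lgr5-high cystine libraries (SD, n = 7), so Agr2 was the more abundant transcript also in the population where Agr3 was high.

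**Figure D1:**
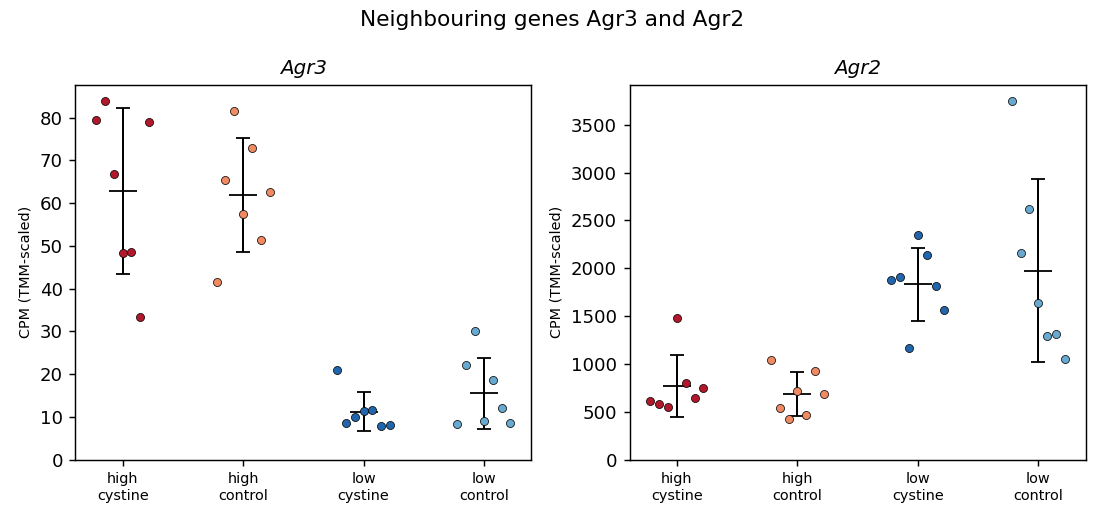
Levels of the neighbouring genes Agr3 and Agr2, in CPM scaled by library composition factors, in each of the 28 libraries (points; the line and bars give the mean and SD, n = 7). Agr3 averaged 62.8 CPM in Lgr5-high cystine libraries against 11.2 CPM in Lgr5-low cystine libraries, while Agr2 averaged 773 CPM against 1830 CPM in the same groups.

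The start regions of Agr3 and Agr2 are printed because the neighbours ran in opposite directions. They are RefSeq promoter windows of the build GRCm38.p6, from 250 bases before to 50 bases after the start, and lie at chr12:35925371-35925670 (plus strand) for Agr3 and chr12:35992675-35992974 (plus strand) for Agr2. Letters of 4 kinds were searched on both strands, namely the TCF/LEF letters CTTTGAA as well as CTTTGAT as well as CTTTGTA as well as CTTTGTT, the E-box CAGCTG, the GATA letters AGATAA and the TATA letters TATAAA. Capitals mark a match.
Agr3: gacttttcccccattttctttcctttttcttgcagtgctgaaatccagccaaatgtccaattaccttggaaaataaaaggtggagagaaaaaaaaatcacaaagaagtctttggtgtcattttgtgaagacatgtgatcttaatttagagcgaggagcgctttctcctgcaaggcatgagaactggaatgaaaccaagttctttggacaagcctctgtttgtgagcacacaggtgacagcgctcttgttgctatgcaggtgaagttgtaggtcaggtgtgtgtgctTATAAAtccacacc
Agr2: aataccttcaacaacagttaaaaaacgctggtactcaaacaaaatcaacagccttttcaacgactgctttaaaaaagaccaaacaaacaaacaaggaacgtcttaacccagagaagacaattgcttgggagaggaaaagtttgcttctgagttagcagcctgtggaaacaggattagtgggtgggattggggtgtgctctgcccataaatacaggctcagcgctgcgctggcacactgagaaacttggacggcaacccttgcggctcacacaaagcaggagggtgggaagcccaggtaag
The Agr3 window holds TATAAA at position 36 after the start, and the Agr2 window holds none of the letters searched. The Agr3 window is 42.3% G and C with 3 CpG, the Agr2 window 47.3% with 7 CpG, and the median of all 32851 windows is 52.7% with 7 CpG.

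In the list of the AGR and thioredoxin-fold disulfide isomerase family, all 13 genes were tested on cystine diet, with 1 higher (Agr3) and 5 lower in Lgr5-high cells. The 5 lower genes were Agr2 and 4 folding enzymes of the endoplasmic reticulum, namely Txndc5 (log2 fold change -1.24, adjusted p = 0.000722 in edgeR's test), P4hb (-0.90, 0.0143), Pdia5 (-1.52, 0.0159) and Pdia6 (-0.58, 0.0134). Pdia5 and Pdia6 had adjusted p values of 0.122 and 0.164 with the macrophage term, and of 0.0658 and 0.151 without the libraries under 5 M counts. The family's median log2 fold change was -0.449, against -0.0397 over all tested genes. On this diet 6 of 10 goblet cell markers, a list that also holds Agr2, were lower in Lgr5-high cells, and the part of goblet cells in the family's values was not tested. In bulk libraries, fewer cells of a type and less RNA per cell cannot be told apart.

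Vav3 showed the lowest levels of the 7 genes in Lgr5-low cells. VAV3 is a guanine nucleotide exchange factor that switches on small GTPases after receptor tyrosine phosphorylation and thereby acts on the actin cytoskeleton. The gene (ENSMUSG00000033721) spans chr3:109340653-109685698 on the plus strand. On cystine diet Vav3 ranged from 3.39 to 7.3 CPM with a median of 4.54 CPM in Lgr5-high libraries, against 0 to 4.36 CPM with a median of 0.28 CPM in Lgr5-low libraries. In control diet libraries Vav3 ranged from 2.5 to 20 CPM with a median of 8.59 CPM in Lgr5-high libraries, against 0 to 0.847 CPM with a median of 0 CPM in Lgr5-low libraries. On cystine diet 5 of 7 Lgr5-high libraries lay above every Lgr5-low library, and a single Lgr5-low library reached into the Lgr5-high range.

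On cystine diet Vav3 had a log2 fold change of 2.12 ± 0.715 (SE, n = 7 each; 95% interval 0.671 to 3.57), with an adjusted p of 0.107 in edgeR's test. Without that Lgr5-low library (replicate 7) it was 3.04 with an adjusted p of 0.0246. Leaving out any other single cystine diet library gave adjusted p values from 0.112 to 0.194 in edgeR's test. With all libraries kept, DESeq2 gave 2.17 with an adjusted p of 0.0322, and limma-voom with sample quality weights gave 3.04 with an adjusted p of 0.00367. Over all 11 alternatives the adjusted p values of Vav3 ran up to 0.174. On control diet the log2 fold change was 5.35, and 7.29 without Lgr5-low control replicate 4, which held 19 of the 21 Vav3 counts of its group. The other 2 counts came from 2 libraries, and 4 of the 7 Lgr5-low control libraries had no Vav3 count, which at their depths allows up to 0.337 to 0.643 CPM each (3 counts, counting error only).

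Neither of the other Vav genes was called between the populations on cystine diet. Vav1, the form of blood cells, averaged 1.86 ± 2.65 CPM in Lgr5-high cystine libraries and 4.31 ± 2.21 CPM in Lgr5-low cystine libraries (SD, n = 7 each; log2 fold change -1.26, adjusted p = 0.461 in edgeR's test). Vav2, the widely expressed form, averaged 2.12 ± 1.67 CPM in Lgr5-high cystine libraries and 3.61 ± 3.80 CPM in Lgr5-low cystine libraries (SD, n = 7 each; -0.75, adjusted p = 0.719 in edgeR's test). Of 21 listed Vav factors, small GTPases of the cytoskeleton and their regulators, 19 were tested on cystine diet, and 2 were called: the GTPase inhibitor Arhgdia was lower (-0.88, adjusted p = 0.0109 in edgeR's test) and Arhgdib, its form of blood cells, was higher (2.30, 0.0455). With the macrophage term Arhgdia had a log2 fold change of -0.70 with an adjusted p of 0.162 and Arhgdib had a log2 fold change of 0.12 with an adjusted p of 0.965. Vav3 had 3.10 with an adjusted p of 0.108 under the same term. Macrophage markers themselves differed between these populations, so the term and the population cannot be fully told apart. Leaving out each library gave Arhgdib adjusted p values from 0.0297 to 0.11 in edgeR's test. The cause of these values was not tested.

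The RefSeq windows cover 6 of the 7 members. Vav3 has 3 of them, and the one inside the gene is printed because it alone among the members' windows holds TCF/LEF letters, those named for the factors at the end of the Wnt pathway. It lies at chr3:109573757-109574056 on the plus strand, and the capitals mark TATAAA and the reverse complement of CTTTGTT.
Vav3: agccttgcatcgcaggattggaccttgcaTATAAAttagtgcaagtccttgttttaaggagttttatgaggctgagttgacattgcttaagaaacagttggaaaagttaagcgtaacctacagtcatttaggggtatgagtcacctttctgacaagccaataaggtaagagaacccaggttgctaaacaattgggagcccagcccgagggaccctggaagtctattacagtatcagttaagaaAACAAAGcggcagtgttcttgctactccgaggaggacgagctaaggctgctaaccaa
Counted from the start, the TCF/LEF letters stand at position -7 and TATAAA at position -221. Of all 32851 windows, 16.9% hold at least 1 of the TCF/LEF forms, 16.3% CAGCTG, 11.2% AGATAA and 13.6% TATAAA. Sorcs2 has no entry. Among the windows of the other members, Cabcoco1 holds TATAAA at position -206 and Ptpro AGATAA at position -146, while those of Fstl1 and Rgcc and the 2 outer Vav3 windows hold none. The windows of Fstl1 and Rgcc are each 66.7% G and C with 21 and 26 CpG, and the outer Vav3 windows reach 74.3% and 78.0%. The deposited values are per gene, so the starts used in these cells were not measured.

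Ptpro had the widest relative spread of the 7 genes among Lgr5-high cystine libraries, with a coefficient of variation of 60.5%. PTPRO is a receptor-type tyrosine phosphatase, best known from the podocytes of the kidney glomerulus. The gene (ENSMUSG00000030223) spans chr6:137252319-137463233 on the plus strand. On cystine diet Ptpro ranged from 1.84 to 23.1 CPM with a median of 14.7 CPM in Lgr5-high libraries, against 2.47 to 6.30 CPM with a median of 4.99 CPM in Lgr5-low libraries. Its control diet levels ranged from 6.76 to 15.9 CPM with a median of 11.7 CPM in Lgr5-high libraries, against 0 to 6.66 CPM with a median of 2.13 CPM in Lgr5-low libraries. On cystine diet 5 Lgr5-high libraries lay above every Lgr5-low library, 1 lay below all of them, and that library held 5 counts of the gene.

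Ptpro had a log2 fold change on cystine diet of 1.41 ± 0.507 (SE, n = 7 each; 95% interval 0.385 to 2.44), with an adjusted p of 0.135 in edgeR's test and 0.0287 without the libraries under 5 M counts. The control diet value was 2.13. Of the R3 receptor phosphatases, 4 of 6 were tested and none was called on cystine diet. Ptprj averaged 1.54 ± 0.934 CPM in Lgr5-high cystine libraries and 2.20 ± 1.67 CPM in Lgr5-low cystine libraries (SD, n = 7 each), and Ptprh, an intestinal form, averaged 1.75 ± 1.20 CPM against 5.0 ± 3.98 CPM in the same groups. Ptprb, known from endothelium, averaged 1.70 ± 0.599 CPM in Lgr5-high cystine libraries and 0.747 ± 0.537 CPM in Lgr5-low cystine libraries (SD, n = 7 each). The 3 paralogs had log2 fold changes of -0.51, -1.52 and 1.19 with adjusted p values of 0.842, 0.307 and 0.653 in edgeR's test.

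Sorcs2 overlapped between the populations on cystine diet. SORCS2 is a receptor of the VPS10 sorting family that binds pro-neurotrophins and is best known from neurons. The gene (ENSMUSG00000029093) spans chr5:36017180-36398139 on the minus strand. On cystine diet Sorcs2 ranged from 2.76 to 11.2 CPM with a median of 6.63 CPM in Lgr5-high libraries, against 0.506 to 7.91 CPM with a median of 1.85 CPM in Lgr5-low libraries. Control diet levels of Sorcs2 ranged from 5.07 to 13.2 CPM with a median of 6.19 CPM in Lgr5-high libraries, against 0.112 to 1.38 CPM with a median of 0.844 CPM in Lgr5-low libraries. On cystine diet only 2 Lgr5-high libraries lay above every Lgr5-low library.

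Sorcs2 had a log2 fold change on cystine diet of 1.13 ± 0.532 (SE, n = 7 each; 95% interval 0.049 to 2.20), with an adjusted p of 0.293 in edgeR's test. With limma-voom and sample quality weights it was 2.03 with an adjusted p of 0.00843. Over all 11 alternatives it ran from 1.02 to 2.03, with adjusted p values up to 0.458. The value on control diet was 3.3. In the list of VPS10 receptors and neurotrophin partners, 3 of 13 genes were tested, namely Sorcs2 and the broadly expressed sorting receptors Sort1 and Sorl1, and none was called on cystine diet. Sort1 averaged 46.8 ± 9.35 CPM in Lgr5-high cystine libraries and 54.9 ± 9.48 CPM in Lgr5-low cystine libraries (SD, n = 7 each), and Sorl1 averaged 26.6 ± 9.74 CPM against 32.0 ± 6.84 CPM in the same groups. Sorcs1 and Sorcs3, the nearest paralogs, had a count of 0 in all 28 libraries, so Sorcs2 was the SorCS gene with counts here.

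Fstl1 was among the more separated of the 7 genes on cystine diet without passing the test. FSTL1 is a secreted glycoprotein of the follistatin and SPARC family that is known to dampen BMP signalling and is usually made by mesenchymal cells. The gene (ENSMUSG00000022816) spans chr16:37776873-37836514 on the plus strand. On cystine diet Fstl1 ranged from 2.33 to 18.8 CPM with a median of 8.73 CPM in Lgr5-high libraries, against 0 to 4.10 CPM with a median of 1.11 CPM in Lgr5-low libraries. In control diet libraries Fstl1 ranged from 4.62 to 18.6 CPM with a median of 13.7 CPM in Lgr5-high libraries, against 0 to 4.24 CPM with a median of 0.934 CPM in Lgr5-low libraries. All but 1 of the Lgr5-high cystine libraries lay above every Lgr5-low cystine library.

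For Fstl1 the log2 fold change on cystine diet was 2.19 ± 0.668 (SE, n = 7 each; 95% interval 0.834 to 3.54), with an adjusted p of 0.0665 in edgeR's test. Its control diet value was 3.10. Fibroblast markers gave summed levels of 5.30 to 23.2 CPM in Lgr5-high cystine libraries against 9.07 to 24.7 CPM in Lgr5-low cystine libraries, led by Fbln1. Of the 12, 6 (Col6a1, Col6a2, Lum, Pdgfra, Dpt and Mgp) were at 0 in all Lgr5-high cystine libraries, the group with the lowest median total. At 0 were also 1 in Lgr5-high control, 1 in Lgr5-low cystine and 4 in Lgr5-low control libraries. Most of the 12 lay near the floor, where depth limits detection. With a term for the fibroblast markers the log2 fold change of Fstl1 was 2.19, and the part of fibroblasts in its values was not tested. Of 18 listed follistatin and SPARC family genes and BMP partners, 7 were tested and none was called on cystine diet. Smoc2, a secreted SPARC family protein used as an intestinal stem cell marker, averaged 99.9 ± 19.2 CPM in Lgr5-high cystine libraries and 66.0 ± 15.8 CPM in Lgr5-low cystine libraries (SD, n = 7 each; log2 fold change 0.60, adjusted p = 0.0835 in edgeR's test). Fst and Fstl3 stayed at or below 1.77 CPM in every library and were not tested.

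Rgcc had the smallest difference between the populations on cystine diet. RGCC, the regulator of cell cycle, binds the kinase CDK1 and is known as a complement response gene. The gene (ENSMUSG00000022018) lies at chr14:79288756-79301645 on the minus strand. On cystine diet Rgcc ranged from 5.59 to 17.7 CPM with a median of 7.65 CPM in Lgr5-high libraries, against 2.49 to 11.2 CPM with a median of 6.51 CPM in Lgr5-low libraries. Its control diet levels ranged from 17.6 to 29.8 CPM with a median of 21.3 CPM in Lgr5-high libraries, against 0.337 to 8.0 CPM with a median of 3.79 CPM in Lgr5-low libraries. The ranges lay largely over each other on cystine diet, where 2 Lgr5-high libraries exceeded every Lgr5-low library.

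For Rgcc the log2 fold change on cystine diet was 0.50 ± 0.397 (SE, n = 7 each; 95% interval -0.305 to 1.3), with an adjusted p of 0.619 in edgeR's test. On control diet it was 2.60. All 6 genes of the list of RGCC and its named cell cycle partners were tested, and none was called on cystine diet. Cdk1 averaged 196 ± 53.3 CPM in Lgr5-high cystine libraries and 141 ± 17.6 CPM in Lgr5-low cystine libraries (SD, n = 7 each; log2 fold change 0.48, adjusted p = 0.205 in edgeR's test). Its partner Ccnb1, cyclin B1, averaged 401 ± 110 CPM against 268 ± 51.5 CPM in the same groups (0.58, adjusted p = 0.0648 in edgeR's test).

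Cabcoco1 was expressed in both populations on cystine diet. CABCOCO1 is a coiled-coil protein named for its association with cilia and for calcium binding. The gene (ENSMUSG00000019945) lies at chr10:68430953-68541896 on the minus strand, and the annotated span of the antisense gene Gm32872 reaches over at least a part of its exons. On cystine diet Cabcoco1 ranged from 8.89 to 40.1 CPM with a median of 24.2 CPM in Lgr5-high libraries, against 4.68 to 24.4 CPM with a median of 11.1 CPM in Lgr5-low libraries. Control diet levels of Cabcoco1 ranged from 11.6 to 29.4 CPM with a median of 25.1 CPM in Lgr5-high libraries, against 0.592 to 6.4 CPM with a median of 4.24 CPM in Lgr5-low libraries. Only 3 Lgr5-high cystine libraries lay above every Lgr5-low cystine library.

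Cabcoco1 had a log2 fold change on cystine diet of 0.92 ± 0.352 (SE, n = 7 each; 95% interval 0.206 to 1.63), with an adjusted p of 0.167 in edgeR's test. Without the libraries under 5 M counts it was 1.40 with an adjusted p of 0.0278. The control diet value was 2.5. Gm32872 held 146 counts over all 28 libraries, and the use of strand in the authors' counting is not given in the sources used here. Whether exons of the 2 genes overlap was not examined, so it is not known whether reads of the pair could be shared.

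**Figure D2:**
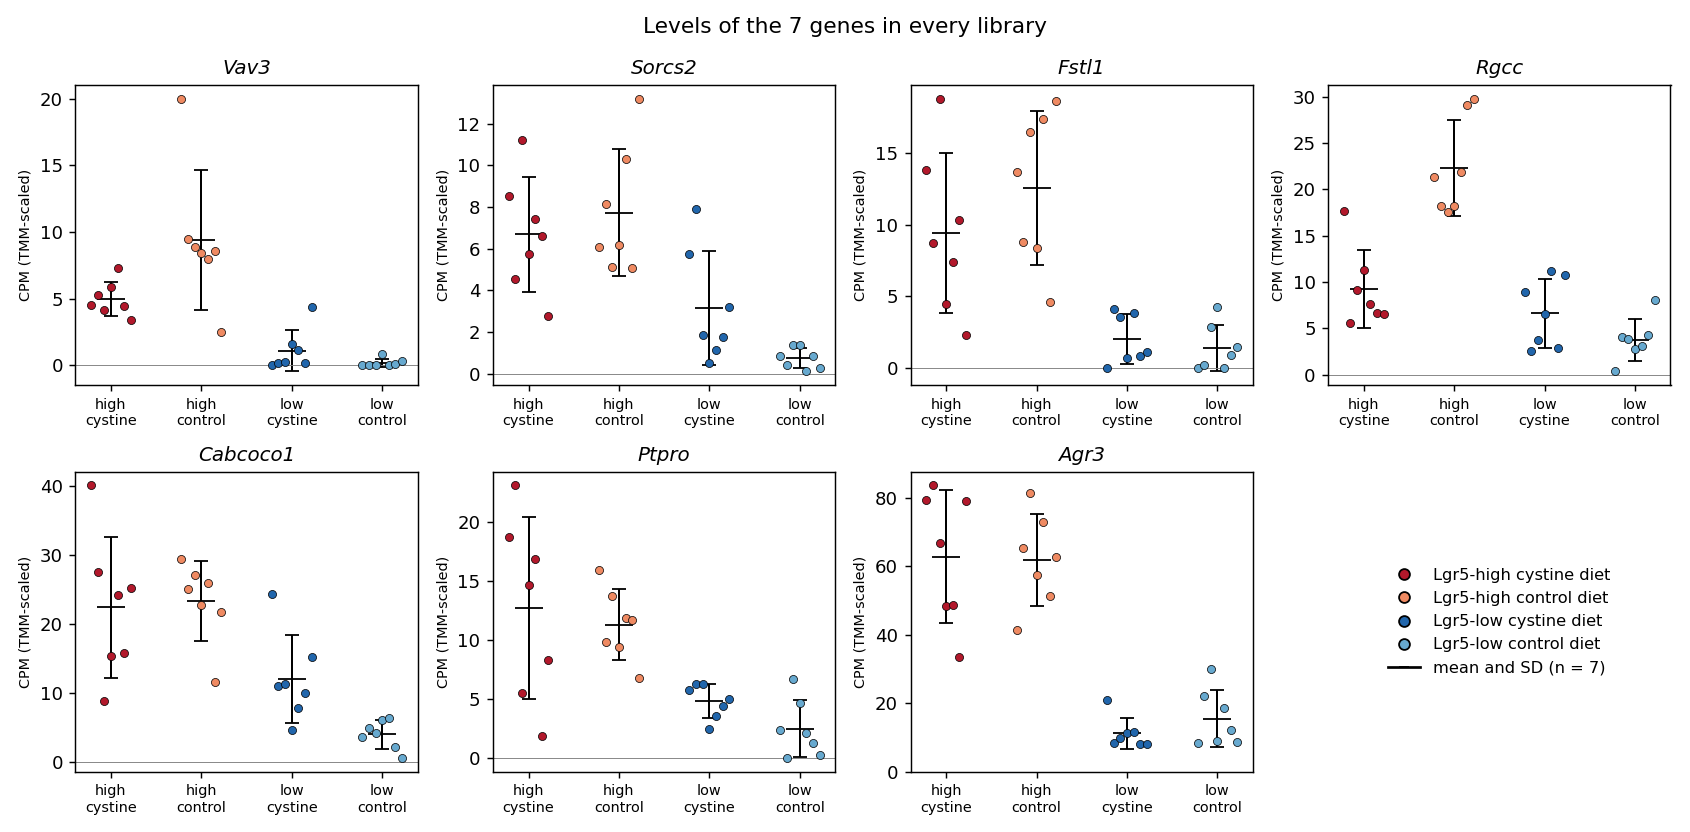
Levels of the 7 genes in every library, in CPM scaled by library composition factors, by group (points are libraries; the line and bars give the mean and SD, n = 7). Agr3 shows no overlap between Lgr5-high and Lgr5-low libraries on either diet, and Rgcc averaged 9.23 CPM in Lgr5-high cystine libraries and 22.3 CPM in Lgr5-high control libraries.

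Across the 4 groups, mean levels were highest in Lgr5-high control libraries for Vav3, Sorcs2, Fstl1, Rgcc and Cabcoco1, and in Lgr5-high cystine libraries for Ptpro and Agr3. Lgr5-low control libraries had the lowest mean for 6 of the genes, while Agr3 was lowest in Lgr5-low cystine libraries, with an average of 11.2 ± 4.54 CPM there and 15.5 ± 8.32 CPM in Lgr5-low control libraries (SD, n = 7 each). Neighbouring groups in this order overlapped for every gene, except Lgr5-high control and Lgr5-low cystine libraries for Ptpro, and the Lgr5-high and the Lgr5-low groups for Agr3. Per kilobase of annotated exon, Agr3 was the most abundant of the 7 in Lgr5-high cystine libraries at 64.6 ± 20.1 CPM, followed by Cabcoco1 at 17.8 ± 8.08 CPM and Rgcc at 10.1 ± 4.56 CPM (SD, n = 7). Sorcs2 was the least abundant at 0.76 ± 0.314 CPM per kilobase.

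None of the 7 genes lay below 0 in the cystine diet contrast, where 52.8% of all tested genes did. This is a description, as the cystine diet values may have had a part in the choice. Their median log2 fold change was 1.41 on cystine diet, against -0.0397 over all tested genes. On control diet it was 2.60, against -0.00975 over all tested genes. All 7 were called on control diet, where 1.8% of the tested genes were, and all 7 were without overlap, as were 0.472%. In that contrast Fstl1 had an adjusted p of 0.0578 in edgeR's test without the libraries under 5 M counts, and Ptpro had 0.0786 when the fit held no other groups than these. Since that contrast chose them, nothing is read from these counts. The values nearest the edge of the choice were 1.99 for Agr3 inside it and 1.88, 1.87 and 1.87 for Slc1a2, Sorbs2 and Nav1 outside it.

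**Figure D3:**
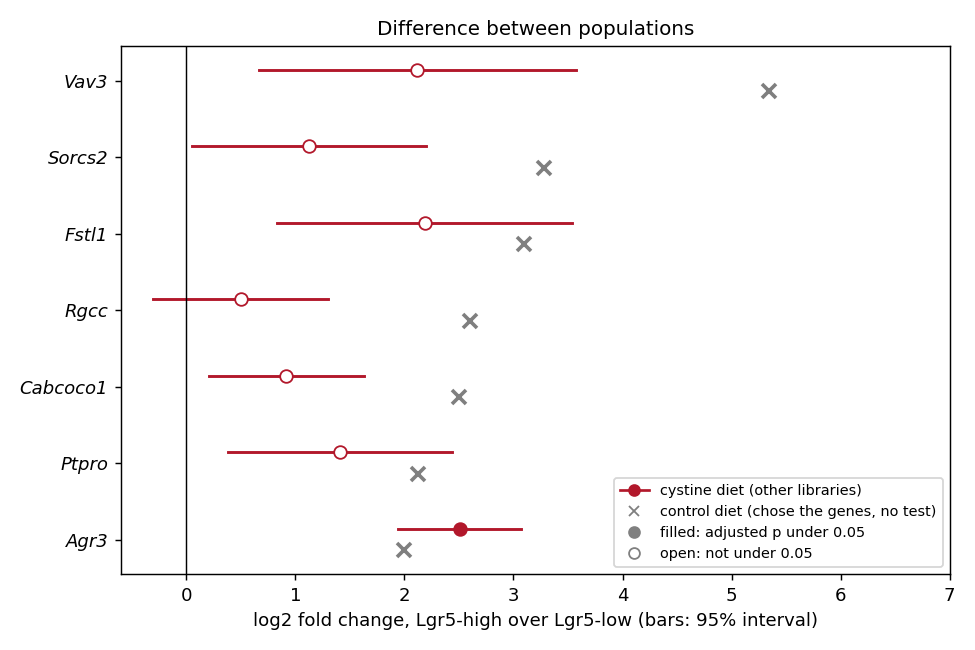
Log2 fold change of Lgr5-high over Lgr5-low cells for each gene on cystine diet (circles with 95% intervals, filled where the adjusted p in edgeR's test was under 0.05) and on control diet (crosses, the contrast that chose the genes, without a test). Agr3 is the single filled circle at 2.51, and the interval of Rgcc, -0.305 to 1.3, is the one that holds 0.

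The call on cystine diet depended on the method for all members but Agr3 and Rgcc. Agr3 passed under all 11 alternatives, with log2 fold changes from 2.49 to 2.75 and adjusted p values from 2.09e-15 to 1.18e-05. Rgcc passed under none, with 0.49 to 0.85 and adjusted p values from 0.306 to 0.612. For the other members the alternatives ran both ways. Adjusted p values ran from 0.00367 to 0.174 for Vav3, 0.00843 to 0.458 for Sorcs2 and 0.0138 to 0.244 for Fstl1. They ran from 0.0108 to 0.223 for Cabcoco1 and 0.0165 to 0.275 for Ptpro. DESeq2 called 4 members (Vav3, Fstl1, Ptpro and Agr3) and limma-voom with sample quality weights called 5 (Vav3, Sorcs2, Cabcoco1, Ptpro and Agr3), while these tools also called 585 and 880 genes in all, against 330 in edgeR's test.

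**Figure D4:**
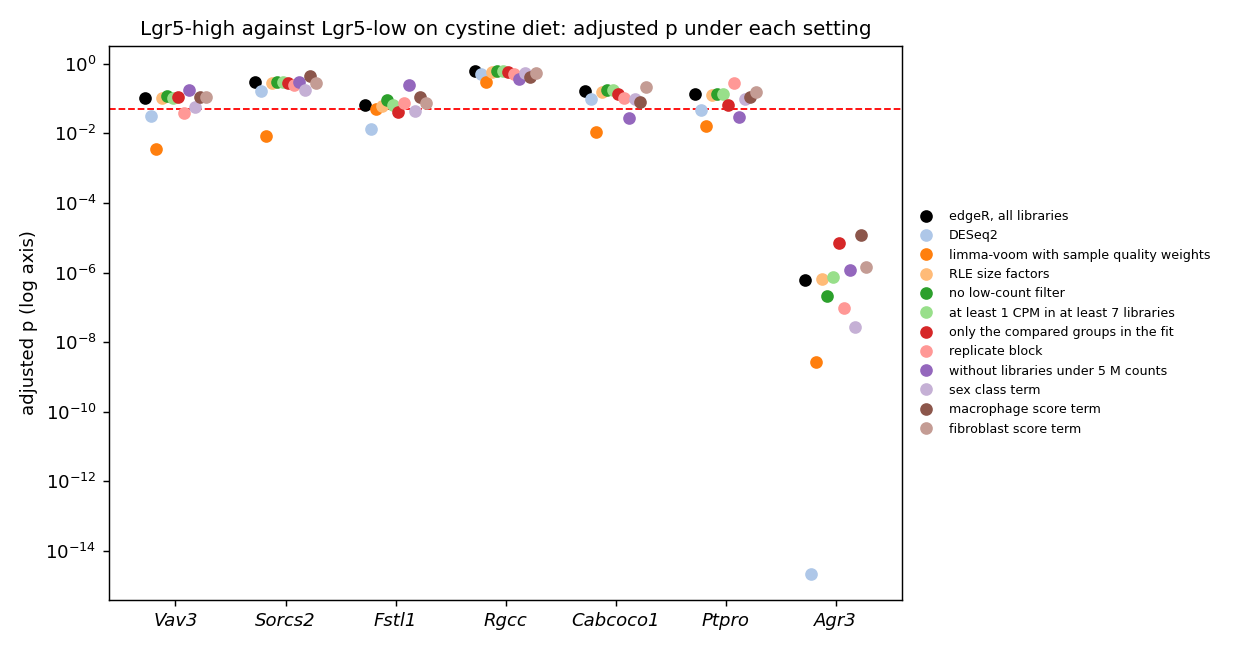
Adjusted p of each gene for Lgr5-high against Lgr5-low cells on cystine diet, on a log axis, under edgeR's test with all libraries (black) and 11 alternatives (colours); the dashed line marks 0.05. All points of Agr3 lie below the line, all points of Rgcc above it, and the other 5 genes have points on both sides.

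The diet comparison asks how cells on a cystine diet differ from cells on a control diet within 1 population. None of the 7 genes was called in Lgr5-high cells, where 0.168% of the tested genes were. None was called in Lgr5-low cells, where 0% were in edgeR's test, with 2.97% of genes at an unadjusted p under 0.05 and 4 genes called by DESeq2 and 1 by limma-voom. Both comparisons share the control libraries that chose the genes as high in Lgr5-high cells and low in Lgr5-low cells, so their values are not independent of the choice and are given as a description.

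In Lgr5-high cells the log2 fold change of cystine over control diet was -1.25 ± 0.398 for Rgcc (SE, n = 7 each; 95% interval -2.06 to -0.45; adjusted p = 0.372 in edgeR's test). It averaged 9.23 ± 4.19 CPM in Lgr5-high cystine libraries and 22.3 ± 5.16 CPM in Lgr5-high control libraries, and 6 of the 7 cystine libraries lay below every control library. Rgcc had an adjusted p of 0.0448 when the 2 compared groups alone were in the fit and 0.0466 with limma-voom. It was -0.87 with an adjusted p of 1.0 with the macrophage term, and -1.02 with an adjusted p of 0.992 without the libraries under 5 M counts.

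The other members' diet values in Lgr5-high cells had intervals that held 0. Vav3 had -0.90 ± 0.685, and averaged 4.99 ± 1.3 CPM in Lgr5-high cystine libraries and 9.40 ± 5.23 CPM in Lgr5-high control libraries. With the macrophage term its value was 0.066, with the opposite sign, and the summed macrophage markers had a median of 374 CPM in Lgr5-high cystine libraries and 45.1 CPM in Lgr5-high control libraries. The log2 fold changes were -0.42 for Fstl1, -0.21 for Sorcs2, -0.05 for Cabcoco1, 0.02 for Agr3 and 0.18 for Ptpro. The members' median was -0.205, against -0.0243 over all tested genes. The 95% interval of Agr3, -0.504 to 0.548, bounds its change on this diet most closely, and that of Vav3, -2.29 to 0.485, least closely.

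In Lgr5-low cells 6 of the 7 genes had positive values, where 50.4% of all tested genes lay below 0. The values were 2.33 ± 0.791 for Vav3, 1.95 ± 0.565 for Sorcs2, 1.53 ± 0.365 for Cabcoco1, 0.89 ± 0.512 for Ptpro, 0.85 ± 0.407 for Rgcc, 0.49 ± 0.665 for Fstl1 and -0.49 ± 0.268 for Agr3 (log2 fold change and SE, n = 7 each). Cabcoco1 averaged 12.1 ± 6.33 CPM in Lgr5-low cystine libraries and 4.03 ± 2.09 CPM in Lgr5-low control libraries, and 6 of the 7 cystine libraries lay above every control library. Its adjusted p was 0.598 in edgeR's test and lay between 0.0524 and 0.999 under the alternatives. Sorcs2 averaged 3.15 ± 2.72 CPM in Lgr5-low cystine libraries and 0.755 ± 0.502 CPM in Lgr5-low control libraries, with 5 cystine libraries above every control library. The value of Vav3 was 1.41 without Lgr5-low cystine replicate 7 and 4.3 without Lgr5-low control replicate 4. The members' median was 0.894, against -0.00413 over all tested genes.

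**Figure D5:**
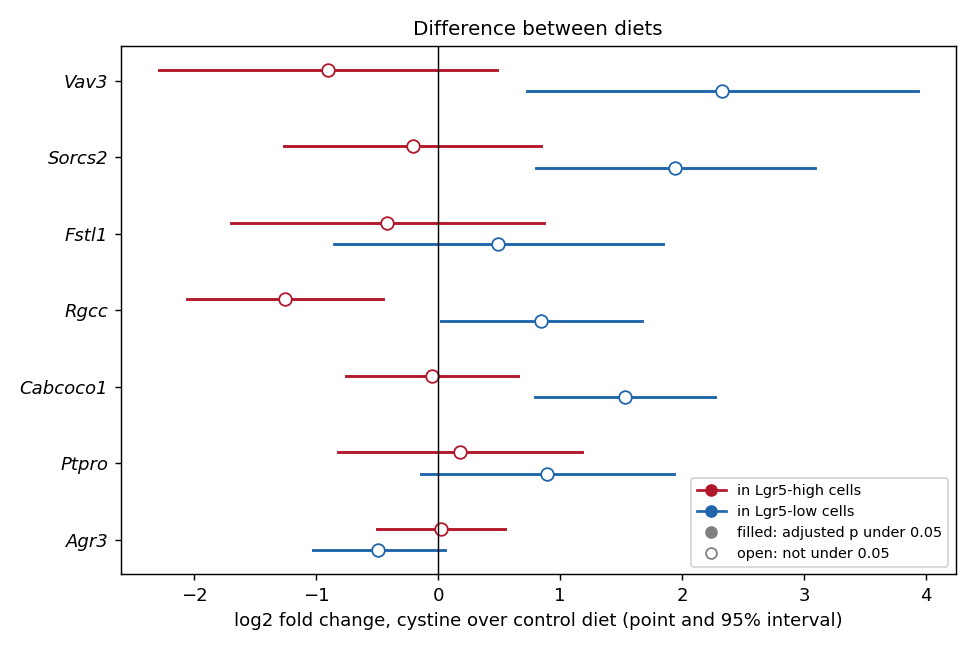
Log2 fold change of cystine over control diet for each gene in Lgr5-high cells (red) and in Lgr5-low cells (blue), with 95% intervals; open circles mark adjusted p values in edgeR's test that were not under 0.05, which holds for all 14 points. Rgcc lies at -1.25 in Lgr5-high cells, and Vav3, Sorcs2 and Cabcoco1 lie at 2.33, 1.95 and 1.53 in Lgr5-low cells.

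The difference of the diet effects, in Lgr5-high minus in Lgr5-low cells, was not called for any member or for any of the 12495 genes in edgeR's test, where 3.32% had an unadjusted p under 0.05, while limma-voom called 6 genes. It contains the control diet contrast with its sign turned. The log2 values were -3.23 ± 1.04 for Vav3, -2.15 ± 0.763 for Sorcs2, -2.10 ± 0.57 for Rgcc, -1.58 ± 0.501 for Cabcoco1, -0.91 ± 0.919 for Fstl1, -0.72 ± 0.709 for Ptpro and 0.51 ± 0.373 for Agr3 (SE), with adjusted p values of 1.0 each. The control diet contrast chose the genes for its large values, which by itself pulls these differences below 0. They therefore cannot decide whether the populations differed less on cystine than on control diet, and are given as a description. The 95% interval of Vav3, -5.34 to -1.12, does not hold 0 but carries the same pull.

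Within groups the 7 genes varied largely apart from each other. After each group's mean was taken off the log2 levels, Pearson's r over the 28 libraries ran from -0.364 (Vav3 and Agr3) to 0.496 (Cabcoco1 and Ptpro) in the 21 pairs, and from -0.0643 to 0.369 with Lgr5. These are descriptions of libraries that also share depth and composition, and low counts weaken them. By the same measure over 9571 genes with a mean of at least 2 CPM, the genes most like the members were Nif3l1 and Olfm4 for Agr3 (r = 0.80 and 0.795), Pim1 for Vav3 (0.676) and Cmc2 for Sorcs2 (0.65). For Fstl1 it was Gins3 (0.696), for Rgcc Gon4l (0.74) and for Cabcoco1 Cela1 (0.712). By Spearman's rank correlation, Pim1 took place 1 for Vav3 and Gins3 took place 1 for Fstl1, and Olfm4, a secreted marker of crypt base stem cells, took place 2 for Agr3. Cela1 took place 2 for Cabcoco1, Cmc2 place 3 for Sorcs2, Nif3l1 place 4 for Agr3 and Gon4l place 6 for Rgcc. These genes were picked as the highest of 9571 values, with no test.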

How the data were processed

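Per the submitters' processing notes, the authors quantified transcripts with Salmon 1.3.0 on build mm10 and deposited estimated counts per gene as whole numbers. How reads were trimmed, annotated and summed is not given in the sources used here. Per the labels' protocols, RNA was poly(A)-selected and libraries kept strand information. Rows without a symbol (1243 genes, 0.00328% to 0.0111% of a library) stayed in the tests under their identifiers.

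Counts were tested with edgeR 4.0.16 (TMM scaling, filterByExpr, robust quasi-likelihood fit with 1 mean per group over all 28 libraries, Benjamini-Hochberg adjustment over 12495 genes, threshold 0.05) in R 4.3.3, on a common biological coefficient of variation of 0.629. The edgeR steps were run on simulated counts of unpaired libraries, with changes set in genes of at least 2 CPM on average. That run did not cover pairing or mixtures of cell types, and nothing is read from it here. Levels are CPM scaled by TMM factors, and likeness used log2(CPM + 0.5). No 2 libraries of a group agreed within sampling noise in 84 pairs (chi-square per gene 14.0 to 256). Alternatives used DESeq2 1.42.0, limma 3.58.1, other filters, scalings and samples, terms for macrophage, fibroblast or sex-linked transcripts (18 libraries over 50 CPM of Xist), and each library left out. Gene positions are from GENCODE M21.

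The members, family lists and marker lists were chosen with earlier results of these data known. Named beside the members were Lgr5, Olfm4 and Sfrp5, the next 3 genes by control diet fold change, called family genes, nearest paralogs and the most alike genes, of which that of Ptpro is not reported here. Cdk1, Ccnb1, Smoc2 and single marker genes were named after their values were seen.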

Additional observations from a re-analysis of the deposited data

Results flagged for a closer look

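In 5 of 28 sets of 7 libraries (7 genes in 4 groups), 1 library stood far from the others of its group. The rule flags about 1 in 20 sets of normally distributed values. Low counts near 0, such as those of Vav3, are not so distributed, so the 2 rates are not compared. For Vav3 this was Lgr5-high control replicate 1 at 20 CPM, with the next library at 9.48 CPM, and Lgr5-low cystine replicate 7 at 4.36 CPM, with the next at 1.58 CPM. It was also Lgr5-low control replicate 4 at 0.847 CPM, with the next at 0.296 CPM. Cabcoco1 was lowest in Lgr5-high control replicate 6 at 11.6 CPM, with the next at 21.8 CPM. Agr3 was highest in Lgr5-low cystine replicate 1 at 21 CPM, with the next at 11.7 CPM, and all Lgr5-high cystine libraries still lay above that value.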

How the results depend on the processing

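For Lgr5-high against Lgr5-low cells on cystine diet, 330 genes were called, against 585 with DESeq2, 880 with limma-voom, 619 with the sex class term and 214 with the macrophage term. In place of 1 member, DESeq2 called 4, limma-voom 5, the fit of only the compared groups 2, the sex class term 2, the replicate block 2 (Vav3, 3.11, adjusted p = 0.0382) and the fit without libraries under 5 M counts 3. Leaving out each library gave 169 to 381 genes and 1 to 2 members, with 169, 178, 190 and 210 genes without Lgr5-low replicate 7, Lgr5-high replicate 2, Lgr5-low replicate 6 and Lgr5-high replicate 7. On control diet 225 genes were called, against 410 with DESeq2, 781 with limma-voom, 144 with no filter, 127 with only the compared groups, 409 with the replicate block and 450 with the sex class term, and 124 to 456 genes with 6 to 7 members when each library was left out.

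For diet in Lgr5-high cells, 21 genes were called, against 89 with DESeq2, 38 with limma-voom (1 member), 37 with only the compared groups (1 member), 0 without libraries under 5 M counts, 41 with the sex class term, 3 with the macrophage term and 36 with the fibroblast term, and 7 to 41 when each library was left out. For diet in Lgr5-low cells, DESeq2 called 4 genes and limma-voom 1 in place of 0. For the difference of the diet effects, limma-voom called 6, the fit without libraries under 5 M counts 1, the macrophage term 1, and leaving out each library 0 to 1. Member values that turned sign were those of Agr3 in Lgr5-high cells with limma-voom (-0.12), the block (-0.00138) and without libraries under 5 M counts (-0.00654), Cabcoco1 without those libraries (0.26) and with the macrophage term (0.44), Vav3 with the macrophage term (0.066, against -0.90), and Ptpro in the difference of the diet effects without those libraries (0.046, against -0.72). Leaving out a library gave -0.28 to 0.10 for Cabcoco1, -0.043 to 0.36 for Ptpro and -0.083 to 0.13 for Agr3. The cause of these changes was not tested.

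In no comparison did the deviations of all 7 same-numbered pairs of libraries correlate at r over 0.1. Between the populations, r was over 0.1 in 2 of 7 pairs on cystine diet (-0.0947 to 0.185, 3 of 7 libraries closest to their own number) and in 5 of 7 on control diet (0.0895 to 0.251, 4 of 7). Between the diets, r was over 0.1 in 2 of 7 pairs of Lgr5-high (-0.0498 to 0.128, 1 of 7) and 4 of 7 pairs of Lgr5-low libraries (-0.0987 to 0.14, 2 of 7). On control diet each same-numbered r between the populations lay above that library's median r with the other numbers (medians -0.0887 to -0.0027). On cystine diet this held for all replicates but replicate 7 (-0.0947, against a median of -0.000628). The titles give replicate numbers and state no pairing. The main fit therefore holds no pairing, which these values do not exclude, and the replicate block is given as an alternative. The block changed no other call of a member than that of Vav3 on cystine diet. The fit of only the compared groups was not run for the difference, which uses all groups. Depth limits Vav3, Sorcs2 and Fstl1 most, whose Lgr5-low libraries hold between 0 and 95 counts each.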
